A study of Mus musculus with 10 samples.

Results

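Hspb1 and 6 other small heat shock genes, Hspb2, Hspb3, Hspb6, Hspb7, Hspb8 and Cryab, were followed in RNA sequencing of the mouse trigeminal ganglion, the sensory ganglion of the face. The 7 genes were chosen by symbol, through their Ensembl identifiers, and all 7 were found in both deposited tables, which held 26411 genes for the surgery experiment and 55886 for the injection experiment. In the surgery experiment, 3 libraries came from mice with the procedure labelled pIONT and 3 from sham-operated mice, all taken on day 10. In the injection experiment, 2 libraries came from ganglia given urocortin 1 (UCN1), a peptide of the corticotropin-releasing factor family, and 2 from ganglia given phosphate-buffered saline (PBS), all taken 6 hours after the injection into the ganglion. The sources used here give no strain, sex, age or dose, and do not say whether a library is 1 animal or a pool. The p-values therefore describe the spread among libraries, which may be technical. The series title names urocortin 1 and HSPB1, and the pair of comparisons asks which transcripts differ after the surgery and which differ after the peptide.

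Small heat shock proteins are chaperones that work without ATP. They share a conserved domain first described in the lens crystallins, assemble into oligomers, and hold unfolding proteins until the ATP-driven chaperones take them over. HSPB1 also binds actin and intermediate filaments, is phosphorylated through the p38 kinase route, and is made constitutively by sensory neurons, where it is known to increase after a peripheral nerve is cut. In humans, mutations of HSPB1, HSPB3 and HSPB8 are known causes of inherited disease of peripheral nerves.

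The families of genes that heat shock factors control carry paired half-sites of the heat shock element, so the start regions of the members are shown with these pairs marked. Both orders of the pair, GAANNTTC and TTCNNGAA, were searched in RefSeq windows (GRCm38.p6) of 250 bases before to 50 bases after a start site. Each reads the same on both strands. RefSeq windows matched 5 of the 7 members, Hspb1, Hspb3, Hspb6, Hspb7 and Hspb8. No window of a member held TTCNNGAA, which occurred in 8.52% of all windows. GAANNTTC occurred in 7.86% of all 32851 windows and 2 or more times in 0.344% of them. Hspb1 held 2 matches, which begin 117 and 97 bases before the start site, and its 250 bases before the start (chr5:135887669-135887918, plus strand) are shown with the matches in capitals.
Hspb1: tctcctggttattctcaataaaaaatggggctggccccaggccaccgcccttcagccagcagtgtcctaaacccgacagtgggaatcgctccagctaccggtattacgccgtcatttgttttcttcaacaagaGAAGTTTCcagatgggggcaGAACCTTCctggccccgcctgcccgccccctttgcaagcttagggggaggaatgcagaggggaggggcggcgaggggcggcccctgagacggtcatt
The single matches of Hspb8 (chr5:116422844-116422873, minus strand), of the second Hspb6 start (chr7:30553170-30553199, plus strand) and of Hspb3 (chr13:113663882-113663911, minus strand) are shown in 30 bases for comparison. They begin at base 3 of the transcript in Hspb8, 120 bases before the start in Hspb6 and 224 bases before it in Hspb3.
Hspb8: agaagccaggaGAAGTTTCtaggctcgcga
Hspb6: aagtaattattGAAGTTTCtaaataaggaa
Hspb3: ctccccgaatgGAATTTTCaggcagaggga
The Hspb7 window and the window of the other Hspb6 start held no match. One match of Hspb1 and those of Hspb8 and Hspb6 have the same letters, GAAGTTTC, and a match is a description of the sequence only.

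Levels are in FPKM, which scales reads to gene length and to the depth of the library, as deposited. The tables rest on different definitions of gene length, so levels are compared within a table only. Depth in genes, recovered from the smallest steps between values, was 24.1 to 29.6 M reads in the surgery libraries and 15.7 to 17.1 M reads in the injection libraries. Of the markers of sensory neurons, all 10 were found in both tables, and their summed levels were 3961 to 5507 FPKM in the surgery libraries and 5448 to 5554 FPKM in the injection libraries. Sham 1 stood apart in the pituitary markers, at a summed 768 FPKM against 80.8 and 255 in the other sham libraries, and pIONT 2 in the macrophage markers, at 857 FPKM, where pIONT 1 and 3 had 394 and 351 FPKM.

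In both experiments 3 genes carried nearly all of the small heat shock transcripts. Hspb1, Hspb8 and Cryab together made up 97.4% to 98.8% of the summed FPKM of the 7 genes in each library, Hspb6 and Hspb2 were low, and Hspb3 and Hspb7 were close to the floor. In the sham libraries Cryab was the highest in 2 of 3, at 222 and 217 FPKM, and in the other one Hspb1 at 197 FPKM was level with Cryab at 195 FPKM, with Hspb8 below both at 158 to 165 FPKM. In the PBS libraries Cryab was the highest at 259 and 225 FPKM, Hspb8 followed at 173 and 167 FPKM, and Hspb1 was the lowest of the 3 at 98.0 and 122 FPKM. The neighbours in these orders did not overlap over the PBS libraries, whereas Hspb1 and Cryab overlapped over the sham libraries.

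**Figure D1:**
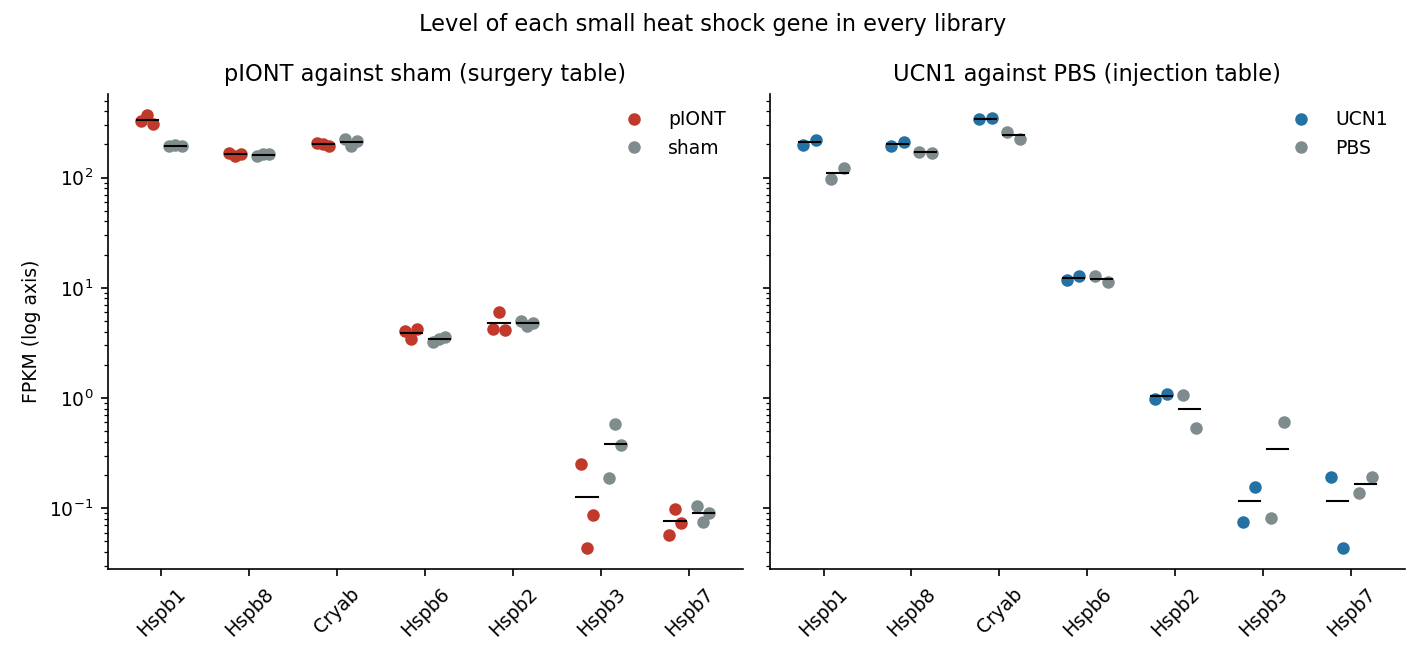
Level of each gene in FPKM on a log axis, with 1 point per library and a black bar at the group mean, for pIONT (left) and sham in the surgery table and UCN1 (left) and PBS in the injection table. Hspb1 is at 305 to 369 FPKM in pIONT and 194 to 197 FPKM in sham libraries, and at 197 and 221 FPKM in UCN1 and 98.0 and 122 FPKM in PBS libraries, while Hspb3 and Hspb7 stay below 1 FPKM.

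At day 10 after pIONT, Hspb1 was the single member called among the 5 that could be tested. It averaged 335 ± 32.5 FPKM in pIONT and 195 ± 1.45 FPKM in sham libraries (SD, n = 3 each). The other abundant members, Hspb8 and Cryab, had fold changes close to 1 with overlapping libraries. The comparison was made with limma on log2(FPKM + 0.5) over all genes with a mean of at least 0.5 FPKM, and a gene is said to be called at a Benjamini-Hochberg adjusted p below 0.05. Of the 7 members 5 passed the filter, 1 was called higher and 0 lower, against 10.5% of all 14672 tested genes called higher, 12.3% called lower and 22.8% in either direction, a balance that turned to 1755 genes higher and 1440 lower under median-of-ratios scaling. The libraries of pIONT and sham did not overlap in 1 of the 5, Hspb1, against 43.4% of all tested genes. At an unadjusted p below 0.05 the count was also 1, against 5434 of all 14672 tested genes in either direction.

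Hspb1 lies on chromosome 5 at 135916773 to 135918417, as the surgery table gives it. These coordinates differ from the GRCm38 coordinates of the start regions shown above. In GRCm38 the gene spans 135887919 to 135889563 on the plus strand. Its level was 330, 369 and 305 FPKM in pIONT 1 to 3, against 195, 197 and 194 FPKM in sham 1 to 3. Reads, here and below, are estimates recovered from FPKM. They were about 8688 to 11096 in each pIONT library and 4821 to 5811 in each sham library. The groups were far from overlapping, with the lowest pIONT library above the highest sham library by over 100 FPKM, and the spread among the pIONT libraries was wider than among the sham libraries. The log2 fold change was 0.77 (SE 0.07, 95% interval 0.60 to 0.94, limma adjusted p = 0.00086). A value of 0.77 is a 1.71-fold difference, and its interval runs from 1.52 to 1.92-fold. By level, Hspb1 was the 77th, 75th and 92nd gene of the table in pIONT 1 to 3 and the 145th, 141st and 145th in sham 1 to 3.

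Set among all tested genes, Hspb1 combined a moderate fold with a high level. Its log2 fold change ranked 351 among the 1537 genes called higher, and its p ranked 204 among all 14672. By the increase in FPKM, 139 FPKM, it ranked 25. Of the 377 genes with a mean of the group means of at least 100 FPKM, 81 (21.5%) were called higher and Hspb1 ranked 19 among the 377 by log2 fold change.

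**Figure D2:**
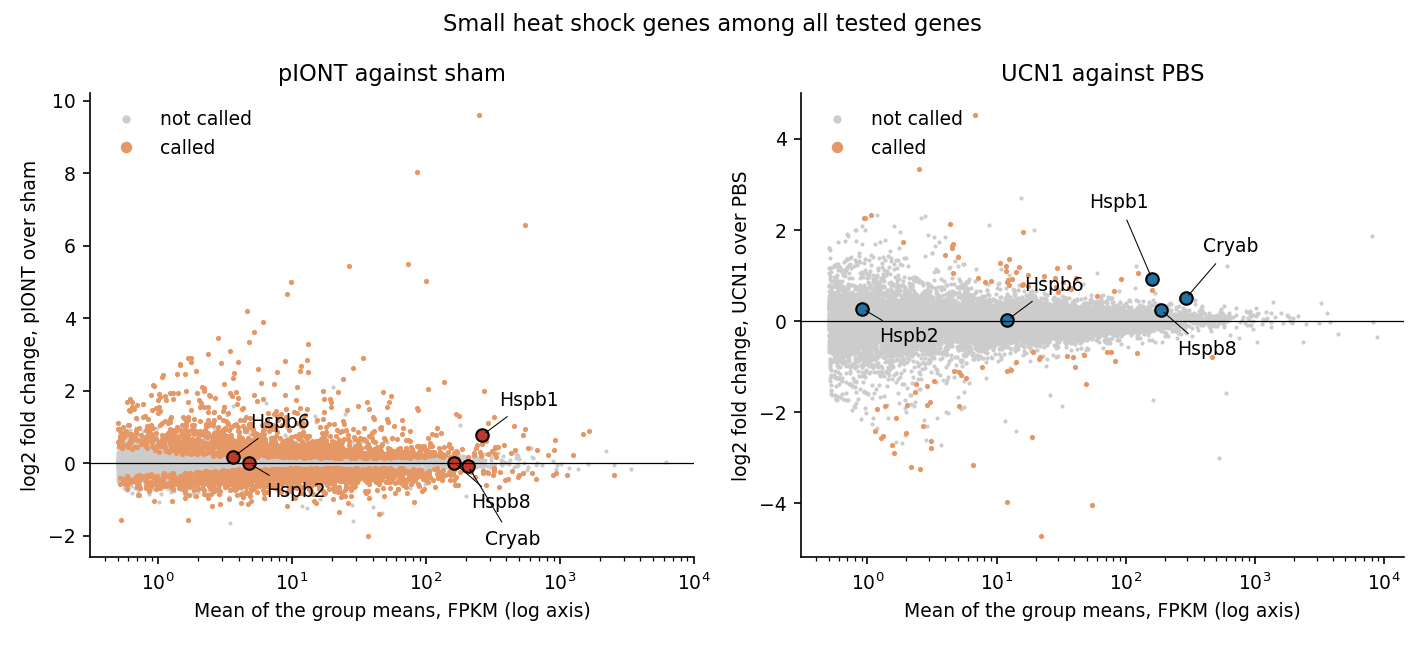
Log2 fold change against the mean of the group means in FPKM (log axis) for every tested gene, pIONT over sham (left) and UCN1 over PBS (right), with called genes in orange, others in grey and the 5 tested members as large labelled points. Hspb1 is at 0.77 and 0.93, and Hspb8 and Cryab are at 0.01 and -0.07 after pIONT and at 0.25 and 0.50 after UCN1.

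Hspb8, which pairs with the co-chaperone BAG3 to send misfolded proteins to autophagy, lies on chromosome 5 at 116546550 to 116560923 in the surgery table. In GRCm38 it spans 116408491 to 116422864 on the minus strand. It was at 169, 158 and 163 FPKM in pIONT 1 to 3 and at 158, 163 and 165 FPKM in sham 1 to 3. The libraries of the groups overlapped, and the log2 fold change was 0.01 (SE 0.04, limma adjusted p = 0.881). Its 95% interval of -0.09 to 0.11 corresponds to 0.94 to 1.08-fold, so a change of the size of Hspb1 lay outside it. Under TPM scaling the sign was the other way, at -0.03 (limma adjusted p = 0.739).

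Cryab encodes alphaB-crystallin, the lens crystallin that is also made in muscle and glia. It lies on chromosome 9 at 50662625 to 50667936 in the surgery table. Its level was 207, 200 and 196 FPKM in pIONT 1 to 3 and 222, 195 and 217 FPKM in sham 1 to 3. The highest library was sham 1, and the groups overlapped. The log2 fold change was -0.07 (SE 0.06, 95% interval -0.21 to 0.07, limma adjusted p = 0.423), or 0.86 to 1.05-fold. A list of oligodendrocyte and astrocyte markers, chosen for the piece of brainstem root that a dissection can hold and for cells known to make Cryab, summed to 155 to 166 FPKM in pIONT and 178 to 216 FPKM in sham libraries with sham 1 the highest. Of its 6 tested genes 1 was called lower and 0 higher, against 12.3% and 10.5% of all tested genes. Its part in the Cryab values was not tested, and without sham 1 the Cryab value was -0.03 (limma adjusted p = 0.743).

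The ratio between members within a library does not depend on how libraries are scaled. Hspb1 was 1.95, 2.34 and 1.87 times Hspb8 in FPKM in pIONT 1 to 3, against 1.23, 1.21 and 1.17 times in sham 1 to 3. It was 1.59, 1.85 and 1.56 times Cryab in pIONT libraries, against 0.877, 1.01 and 0.895 times in sham libraries. Both ratios were higher in every pIONT library than in any sham library, and Cryab over Hspb8 overlapped, at 1.20 to 1.27 in pIONT and 1.20 to 1.40 in sham libraries. The 7 genes together summed to 715, 737 and 672 FPKM in pIONT 1 to 3 and 583, 564 and 585 FPKM in sham 1 to 3, and Hspb1 was 46.2%, 50.1% and 45.3% of that sum in pIONT and 33.4%, 34.9% and 33.2% in sham libraries.

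**Figure D3:**
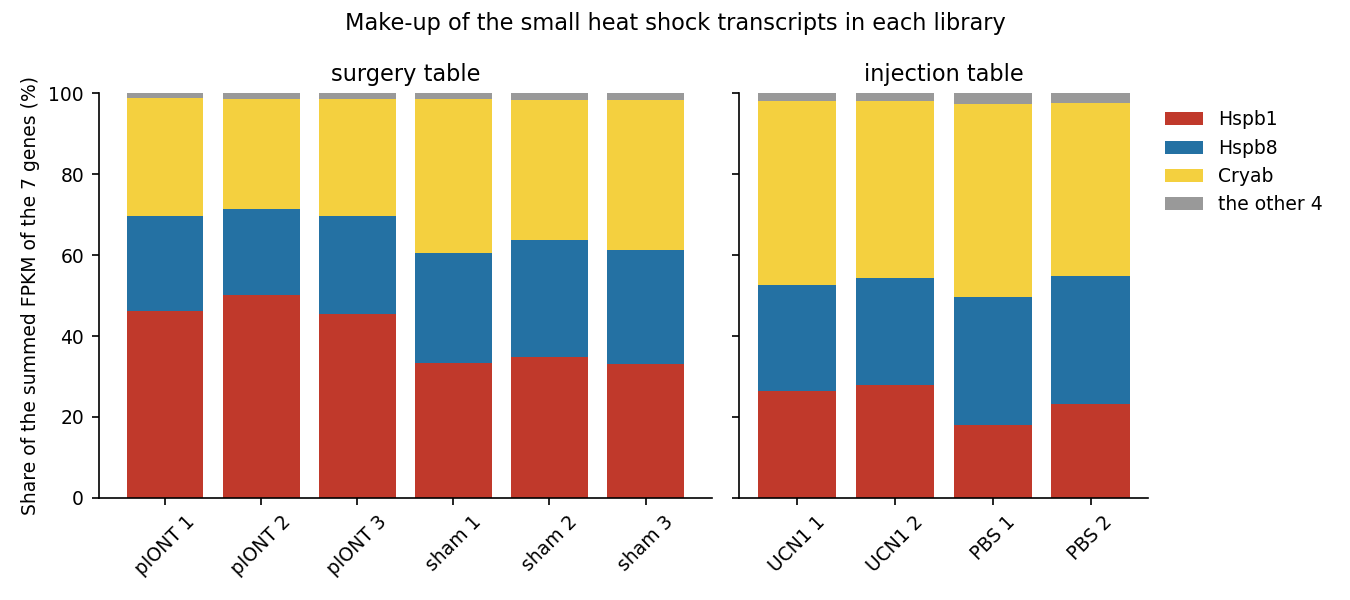
Share in percent of the summed FPKM of the 7 genes held by Hspb1, Hspb8, Cryab and the other 4 genes, with 1 bar per library, pIONT left of sham and UCN1 left of PBS. The Hspb1 share is 45.3% to 50.1% in pIONT and 33.2% to 34.9% in sham libraries, and 26.5% and 27.9% in UCN1 and 18.0% and 23.2% in PBS libraries.

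Hspb6, a member known from smooth and striated muscle, was at 4.02, 3.45 and 4.20 FPKM in pIONT 1 to 3 and at 3.19, 3.44 and 3.57 FPKM in sham 1 to 3. One pIONT library lay within the sham range, and the log2 fold change of 0.17 (SE 0.08, 95% interval -0.02 to 0.36) did not pass (limma adjusted p = 0.181). Hspb2, a muscle member, was at 4.22, 6.09 and 4.13 FPKM in pIONT 1 to 3 and at 5.03, 4.46 and 4.82 FPKM in sham 1 to 3. The pIONT libraries lay on both sides of the sham libraries, with pIONT 2 the highest, and the log2 fold change was -0.01 (SE 0.14, 95% interval -0.33 to 0.32, limma adjusted p = 0.977), a sign that turned under median-of-ratios scaling (0.014) and when single libraries were left out. In GENCODE vM21 (GRCm38) the exons of Hspb2 share 252 bases with exons of Cryab on the opposite strand, 30.2% of the Hspb2 exon bases and 17.0% of those of Cryab. No source used here says whether reads were counted by strand, so the values of this pair, above all those of the low Hspb2, may hold reads of the other gene. Exons of Hspb6 share 5.31% of their bases with Proser3 on the opposite strand.

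Hspb3 and Hspb7, both known as muscle members, were below the filter and were not tested. Hspb3 was at 0.250, 0.0439 and 0.0865 FPKM in pIONT 1 to 3, from 5, 1 and 2 reads, and at 0.187, 0.579 and 0.372 FPKM in sham 1 to 3, from 4, 13 and 7 reads. Hspb7 was at 0.0565, 0.0991 and 0.0732 FPKM in pIONT libraries, from 18 reads in all, and at 0.105, 0.0754 and 0.0899 FPKM in sham libraries, from 20 reads in all. The libraries of both genes overlapped between the groups. The skeletal muscle list summed to 2.17 to 4.05 FPKM in pIONT and 2.02 to 2.26 FPKM in sham libraries, with 2 of 10 genes passing the filter and 0 called (0 at an unadjusted p below 0.05). The remaining genes of the family were as low, with Hspb9 at 0.093 to 0.520 FPKM in pIONT and 0.0479 to 0.251 FPKM in sham libraries, the lens gene Cryaa at 0 or 1 read per library and the sperm tail gene Odf1 at 0.0945 FPKM or less.

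Some lists of cell type markers moved with the groups. In whole tissue a change in cell numbers and a change in RNA per cell cannot be told apart. Over all tested genes 10.5% were called higher and 12.3% lower, and 5434 of 14672 had an unadjusted p below 0.05 in either direction. Of 10 macrophage markers 6 were called higher and 0 lower (10 higher at an unadjusted p below 0.05), with sums of 351 to 857 FPKM in pIONT and 163 to 300 FPKM in sham libraries. pIONT 2 was the highest pIONT library in both the macrophage sum and Hspb1. Without pIONT 2 the log2 fold change of Hspb1 was 0.70 (limma adjusted p = 0.000748), and the macrophage sums of the other pIONT libraries, 394 and 351 FPKM, were still above those of all sham libraries. Of 10 neuronal markers 4 were called higher and 4 lower, with sums of 5239 to 5507 FPKM in pIONT and 3961 to 4265 FPKM in sham libraries. The sum and the median of this list differ in sign, since its median log2 fold change was -0.18 and the tubulin gene Tubb3 alone was at 2149 FPKM in pIONT and 1162 FPKM in sham libraries. Of 10 markers of satellite glia, the cells that wrap the neurons, 2 were called higher and 2 lower, with sums of 3245 to 3897 FPKM in pIONT and 2896 to 3100 FPKM in sham libraries. Of 10 markers of myelinating Schwann cells 0 were called higher and 7 lower (9 lower at an unadjusted p below 0.05), with sums of 3823 to 4089 FPKM in pIONT and 4616 to 5109 FPKM in sham libraries. Of the endothelial markers 0 of 10 were called higher and 2 lower, and of the fibroblast, mural cell, pituitary and red blood cell lists 0 were called, with 1 higher and 1 lower at an unadjusted p below 0.05. The surgery table holds 9 of the 10 pituitary markers and, as deposited, 0 genes that are at 0 in every library. The part of these lists in the Hspb1 result was not tested.

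**Figure D4:**
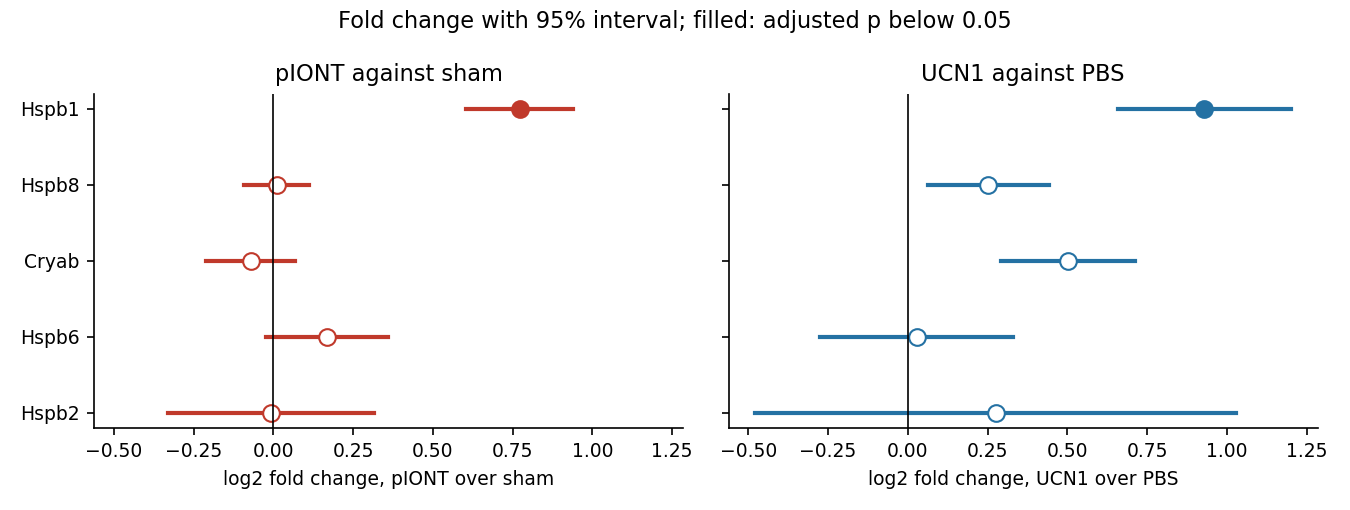
Log2 fold change of the 5 tested members with its 95% interval, pIONT over sham (left) and UCN1 over PBS (right), with filled points for called genes. Hspb1 is filled in both panels, the intervals of the other 4 members include 0 after pIONT, and those of Hspb8 and Cryab lie above 0 after UCN1 without a call.

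At 6 hours after UCN1, Hspb1 was again the single member called, and Cryab and Hspb8 were higher in both UCN1 libraries without passing the test. Hspb1 averaged 209 ± 17.1 FPKM in UCN1 and 110 ± 17.1 FPKM in PBS libraries (SD, n = 2 each). Of the 5 members past the filter, the same 5 genes as in the surgery table, 1 was called higher and 0 lower, against 0.304% of all 16139 tested genes called higher, 0.297% lower and 0.601% in either direction. At an unadjusted p below 0.05 there were 3 higher, Hspb1, Cryab and Hspb8, and 0 lower, against 2113 of all tested genes in either direction.

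Hspb1 was at 197 and 221 FPKM in UCN1 1 and 2, from 3087 and 3336 reads, and at 98.0 and 122 FPKM in PBS 1 and 2, from 1409 and 1903 reads. UCN1 and PBS libraries did not overlap, as in 45.5% of all tested genes. The PBS libraries differed from each other by as much in FPKM as the UCN1 libraries did. At the lower PBS level this is a wider spread on the log2 scale. The log2 fold change was 0.93 (SE 0.12, 95% interval 0.66 to 1.20, limma adjusted p = 0.0222), or 1.90-fold with an interval of 1.58 to 2.30-fold. The call rested on all 4 libraries, since leaving out any 1 of them ended it. The value was then 1.01 without UCN1 1, 0.85 without UCN1 2, 0.77 without PBS 1 and 1.09 without PBS 2 (limma adjusted p = 0.169, 0.402, 0.0945 and 0.0562). The call was also lost with no filter and with no mean-variance trend (limma adjusted p = 0.332 and 0.224).

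Few genes passed in this table. By p Hspb1 ranked 34 among 16139 tested genes, and by log2 fold change 29 among the 49 called higher. Of the 1092 genes with a mean of the group means of at least 100 FPKM, 4 were called higher and 2 lower, and Hspb1 ranked 5 among the 1092 by log2 fold change. By level it was the 415th and 350th gene of the table in UCN1 1 and 2 and the 1124th and 829th in PBS 1 and 2.

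Cryab was at 338 and 346 FPKM in UCN1 1 and 2 and at 259 and 225 FPKM in PBS 1 and 2. The groups did not overlap, and the log2 fold change was 0.50 (SE 0.09, 95% interval 0.29 to 0.71, limma adjusted p = 0.0732). It was called at a filter of 2 FPKM (limma adjusted p = 0.0291), where fewer genes were tested and the mean-variance trend was fitted to these genes only. The difference in level between the group means was 100.4 FPKM for Cryab and 99.1 FPKM for Hspb1. Hspb8 was at 195 and 210 FPKM in UCN1 1 and 2 and at 173 and 167 FPKM in PBS 1 and 2. The groups again did not overlap, and the log2 fold change was 0.25 (SE 0.08, 95% interval 0.06 to 0.44, limma adjusted p = 0.265). The upper end of the Hspb8 interval lay below the lower end of the Hspb1 interval, whereas the intervals of Cryab and Hspb1 overlapped, and the differences between members were not tested.

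Hspb1 was 1.01 and 1.05 times Hspb8 in FPKM in UCN1 1 and 2, against 0.568 and 0.731 times in PBS 1 and 2. It was 0.582 and 0.639 times Cryab in UCN1 libraries, against 0.378 and 0.543 times in PBS libraries. Cryab was 1.74 and 1.65 times Hspb8 in UCN1 libraries, against 1.50 and 1.35 times in PBS libraries. All 3 ratios were higher in both UCN1 libraries than in either PBS library, and the ratios were not tested. The 7 genes summed to 743 and 792 FPKM in UCN1 1 and 2 and to 544 and 527 FPKM in PBS 1 and 2.

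Neither of the tested low members was called. Hspb6 was at 11.7 and 12.8 FPKM in UCN1 and at 12.8 and 11.2 FPKM in PBS libraries, with a log2 fold change of 0.03 (SE 0.13, 95% interval -0.28 to 0.33, limma adjusted p = 0.953). Hspb2 was at 0.973 and 1.10 FPKM in UCN1 and at 1.06 and 0.531 FPKM in PBS libraries, from 11 and 12 reads and from 11 and 6 reads, and its log2 fold change of 0.28 had an interval of -0.48 to 1.03 (limma adjusted p = 0.763). Hspb3 rested on 1 and 2 reads in UCN1 and 1 and 8 reads in PBS libraries, and Hspb7 on 9 and 2 reads in UCN1 and 6 and 9 reads in PBS libraries, all at 0.601 FPKM or less. The lens gene Cryaa and Odf1 were at 0 in all 4 libraries, and Hspb9 rested on 0 and 6 reads in UCN1 and 3 and 0 reads in PBS libraries.

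Some marker lists also moved with the groups of this experiment. Over all tested genes 0.304% were called higher and 0.297% lower, and 2113 of 16139 had an unadjusted p below 0.05 in either direction. Of 10 markers of fibroblasts and meninges 5 were called lower and 0 higher, with sums of 703 to 725 FPKM in UCN1 and 774 to 999 FPKM in PBS libraries. Of the pituitary list 3 of 5 tested genes were called lower and 0 higher, with sums of 9.22 to 9.61 FPKM in UCN1 and 124.0 to 124.3 FPKM in PBS libraries, and Lhb at 0 in every library. Of the lists of neurons, satellite glia, myelinating Schwann cells and macrophages, 10 genes each, 0 were called. At an unadjusted p below 0.05 there were 0 higher and 1 lower among the neuronal, 3 and 0 among the satellite glia, 1 and 0 among the Schwann cell and 1 and 1 among the macrophage markers. The satellite glia sums were 5148 to 5304 FPKM in UCN1 and 4586 to 4856 FPKM in PBS libraries. The endothelial sums were 142 and 144 FPKM in UCN1 and 123 and 108 FPKM in PBS libraries, with 0 of 10 genes called (1 higher at an unadjusted p below 0.05). The oligodendrocyte and astrocyte sums were 368 and 383 FPKM in UCN1 and 472 and 401 FPKM in PBS libraries, lower in both UCN1 libraries where Cryab was higher, with 0 of 4 tested genes called (1 lower at an unadjusted p below 0.05) and Olig2 at 0 in every library. The part of these differences in the Hspb1 and Cryab values was not tested.

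**Figure D5:**
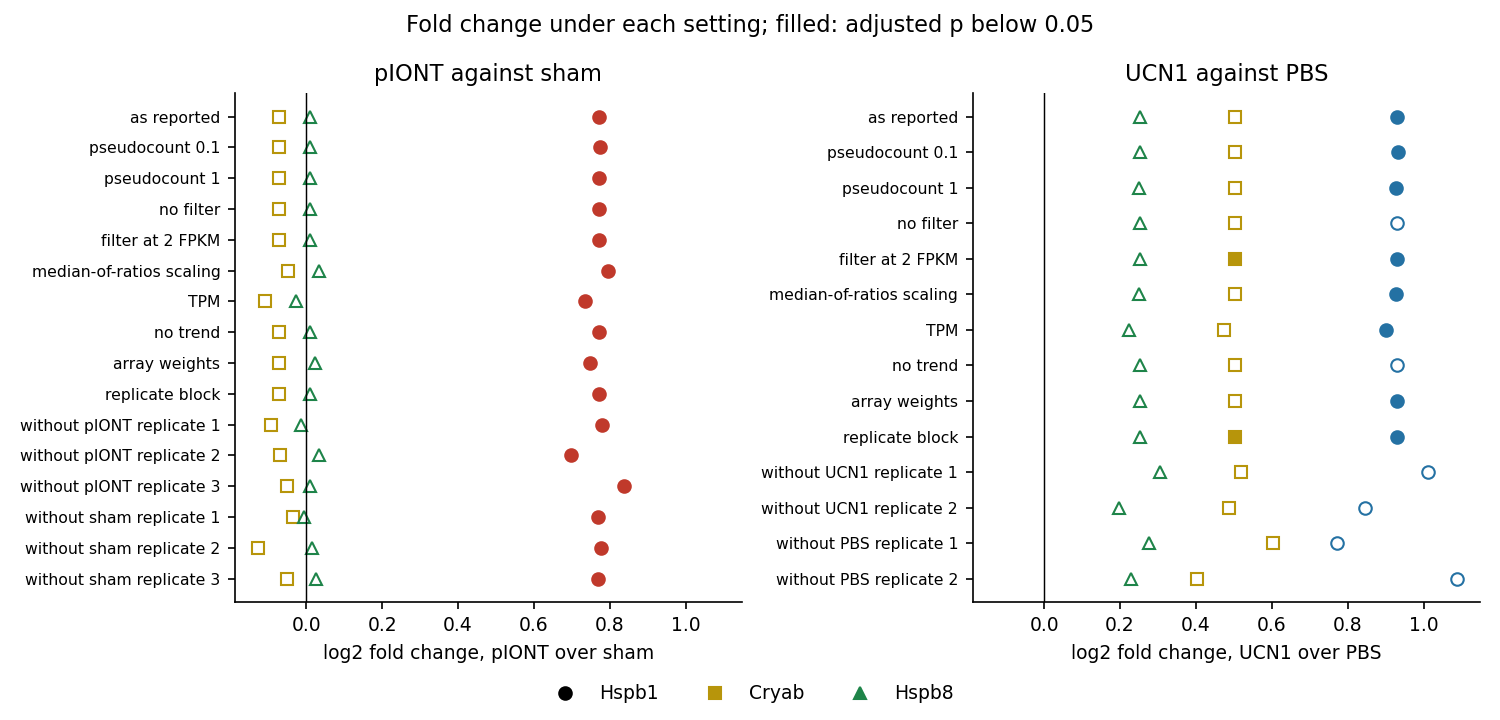
Log2 fold change of Hspb1 (circles), Cryab (squares) and Hspb8 (triangles) as reported and under each alternative setting, pIONT over sham (left) and UCN1 over PBS (right), filled where the adjusted p is below 0.05. Hspb1 stays between 0.70 and 0.84 and filled throughout after pIONT, and between 0.77 and 1.09 after UCN1, where it is open in 6 of 13 alternatives.

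Genes that work with the small heat shock proteins were followed as 4 lists. The first holds heat shock factors, chaperones and co-chaperones. Among them are ATP-driven chaperones, which take over the clients of the small heat shock proteins. After pIONT 0 of 20 genes were called higher and 4 lower, against 10.5% and 12.3% of all tested genes (1 and 9 at an unadjusted p below 0.05), with a median log2 fold change of -0.09 against -0.02 over all tested genes. Hsph1, a nucleotide exchange factor of the HSP70 chaperones, was at -0.25 (limma adjusted p = 0.0145), Stip1, which links HSP70 to HSP90, at -0.20 (limma adjusted p = 0.0316) and the co-chaperone Dnajb4 at -0.21 (limma adjusted p = 0.0442). After UCN1 2 of 20 genes were called higher and 0 lower, against 0.304% and 0.297% of all tested genes (11 and 0 at an unadjusted p below 0.05), with a median of 0.33 against -0.01 over all tested genes. Hspa1b, an inducible HSP70 gene, was at 25.8 FPKM in UCN1 and 6.24 FPKM in PBS libraries on average, a log2 fold change of 1.96 (limma adjusted p = 0.0015), and its co-chaperone Dnajb1 at 50.6 and 21.9 FPKM, a log2 fold change of 1.19 (limma adjusted p = 0.00469). Hspa1b has a near-identical neighbour, Hspa1a, so its reads may be split between them. With no filter 0 genes were called higher after UCN1, so neither call held there. With no trend 1 gene was called higher.

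Another list holds kinase genes of the p38 route that leads to HSPB1 phosphorylation, with the kinase gene Prkd1 and the phosphatase gene Dusp1. After pIONT 2 of 10 tested genes were called higher and 3 lower, against 10.5% and 12.3% of all tested genes. The median was 0.01 against -0.02 over all tested genes. The p38 alpha kinase gene Mapk14 averaged 21.5 FPKM in pIONT and 15.9 FPKM in sham libraries, a log2 fold change of 0.43 (limma adjusted p = 0.00435), and Dusp1 rose by 0.42 (limma adjusted p = 0.00246). Map2k6, a kinase that activates p38, fell by 0.51 (limma adjusted p = 0.00439). Mapk12 and Mapkapk3, named after their values were seen, were also called lower, at -0.31 and -0.46 (limma adjusted p = 0.00444 and 0.0105). Mapkapk2, named likewise, was not called, at 0.12 (limma adjusted p = 0.251). After UCN1 0 of 10 were called (1 higher and 0 lower at an unadjusted p below 0.05), with a median of 0.09, and the most abundant, Mapk11 and Mapk14, had log2 fold changes of 0.10 and 0.08 (limma adjusted p = 0.707 and 0.758).

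The next list holds partners of HSPB8 in chaperone-assisted autophagy and related genes. Among the latter is Bag1, an HSP70 co-chaperone gene whose protein is not the HSPB8 partner. Of the 8 tested genes of the list 4 were called higher and 0 lower after pIONT, against 10.5% and 12.3% of all tested genes. The median was 0.13 against -0.02 over all tested genes. Map1lc3b, an autophagosome protein gene, was at 84.9 FPKM in pIONT and 68.0 FPKM in sham libraries, a log2 fold change of 0.32 (limma adjusted p = 0.00189). Bag1 rose by 0.19 (limma adjusted p = 0.0152) and the HSP70 gene Hspa2 by 0.39 (limma adjusted p = 0.042). Bag3, the gene of the HSPB8 partner, was named after its values were seen and was not called. It averaged 87.6 FPKM in pIONT and 84.9 FPKM in sham libraries, a log2 fold change of 0.05 (limma adjusted p = 0.489). After UCN1 0 of 9 were called (2 higher and 1 lower at an unadjusted p below 0.05), with a median of 0.11. The most abundant, the autophagy receptor gene Sqstm1 and Map1lc3b, had log2 fold changes of 0.18 and 0.15 (limma adjusted p = 0.408 and 0.445). Exons of Sqstm1 share 17.3% of their bases with Mrnip on the opposite strand. Bag3 averaged 140 FPKM in UCN1 and 101 FPKM in PBS libraries, a log2 fold change of 0.47 (limma adjusted p = 0.0983).

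Of the cytoskeletal genes whose proteins small heat shock proteins are known to bind, 7 of 15 were called higher and 3 lower after pIONT, against 10.5% and 12.3% of all tested genes, with a median of 0.14 against -0.02 over all tested genes. Tubb3, a neuronal tubulin gene that is also in the neuronal marker list, averaged 2149 FPKM in pIONT and 1162 FPKM in sham libraries, a log2 fold change of 0.89 (limma adjusted p = 0.000358). Flnc (filamin C), an actin crosslinker, was at 2.81 FPKM in pIONT and 0.516 FPKM in sham libraries, a log2 fold change of 1.69 (limma adjusted p = 0.00179), and Actg1 (gamma actin) rose by 0.43 (limma adjusted p = 0.0049). The 3 called lower were the neurofilament genes Nefh, Nefm and Nefl, named after their values were seen, at -0.43, -0.34 and -0.28 (limma adjusted p = 0.00808, 0.0178 and 0.0132), of which Nefm and Nefl share exon bases on opposite strands. After UCN1 1 of 15 was called higher and 0 lower, against 0.304% and 0.297% of all tested genes. At an unadjusted p below 0.05 there were 4 and 0, and the median was 0.08. The called gene was Gfap, the intermediate filament gene of glia, at 7.10 FPKM in UCN1 and 1.99 FPKM in PBS libraries. Its log2 fold change was 1.66 (limma adjusted p = 0.0462). This call was lost with no filter, where 0 genes were called higher.

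The genes with the profile most like that of Hspb1 were sought over all 10 libraries, by the root mean square difference of log2 values centred within each table, among 7294 genes with a mean of at least 5 FPKM in both tables. The nearest were Parp3, an ADP-ribosylating enzyme gene, at 0.148, Socs3, an inhibitor of cytokine signalling, at 0.155, Irs2, an adaptor of the insulin receptor, at 0.155, Tmsb10, an actin-binding thymosin gene, at 0.160 and the cytokine receptor gene Crlf2 at 0.173, against a median difference of 0.449 over the genes searched. Parp3 had log2 fold changes of 0.56 after pIONT and 0.65 after UCN1, Socs3 of 0.90 and 0.99, and Tmsb10 of 0.77 and 0.51, all called in both comparisons. These genes were chosen for their likeness to Hspb1 over the same libraries, so their fold changes and calls describe the choice and support nothing. Their calls after UCN1 were lost with no filter, where 0 genes were called higher. Irs2 and Crlf2, at 1.02 and 0.42 after pIONT, were called there but not after UCN1, at 0.58 and 0.73 (limma adjusted p = 0.136 and 0.147). The profiles nearest to Hspb8 were those of Mier2, Cds2 and Csnk1d, at 0.0309 to 0.0312, and those nearest to Cryab of Itprid2, Plin3 and Gna13, at 0.0650 to 0.0683. None of these 6 was called in either comparison, with limma adjusted p-values of 0.1004 or more.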

How the data were processed

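The deposited values are FPKM, in a table for each experiment with a column for each library. Per the submitters' processing notes, STAR, HTSeq, DESeq2 and the build GRCm39 were used, with no version, role or parameter. The coordinates of the injection table match GENCODE vM21 (GRCm38) for 99.4% of its identifiers, those of the surgery table for 1.96%. The labels' protocols name TRIzol for the RNA and a NEBNext Ultra II kit for the libraries. Symbols came from the GENCODE name table, for 25166 and 55141 identifiers. Low values were whole multiples of a read step, within 0.1 reads and up to 20 reads. This held for 92.6% of them with the union of exons as length in the surgery table. It held for 98.9% with the mean transcript length in the injection table. The step gave depths and reads per gene, which are estimates checked on low values only. Sequences came from RefSeq.

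Genes with a mean of at least 0.5 FPKM were tested within their table on the log2(FPKM + 0.5) scale. The test was limma (3.58.1, under R 4.3.3) without covariates, its prior following mean expression, and p-values were adjusted by Benjamini-Hochberg over all tested genes. This scale understates the change of low genes. The fit was tested on simulated data. The injection columns carry the numbers 1 and 3, which the labels' descriptions tie to the titles numbered 1 and 2, and the title numbers are used. Chi-square values of 6.20 to 16.1 for each degree of freedom between libraries of a group gave no sign of a duplicate. The members and lists were chosen with earlier results of these data known. Named genes were all 7 members, up to 3 called genes by p or else the 2 most abundant of each list, and the nearest profiles. Bag3, Mapk12, Mapkapk3, Mapkapk2 and the neurofilament genes were added after their values were seen.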

Additional observations from a re-analysis of the deposited data

How the results depend on the processing

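After pIONT, Hspb1 was called higher in all 15 alternatives, at 0.70 to 0.84 on the log2 scale (limma adjusted p = 0.000348 to 0.00802), and 1 member was called higher and 0 lower in each. Over all genes 3344 were called, 2085 with the replicate block and 1689 to 2969 when single libraries were left out, with 2076 without sham 2 and 1689 without sham 3. The balance of calls was 1537 higher and 1807 lower as reported and 1400 and 2110 under TPM, and turned to 1755 and 1440 with median-of-ratios scaling and to 1438 and 1322 with no filter. After UCN1, Hspb1 was called in 7 of 13 alternatives (limma adjusted p = 0.0008 to 0.402) and was not called with no filter or no trend, at 0.93 in both, or without any 1 library, at 0.77 to 1.09. Members called higher numbered 1, but 0 with no filter, with no trend and without any 1 library, and 2, with Cryab at 0.50 added, at a filter of 2 FPKM and with the replicate block (limma adjusted p = 0.0291 and 0.0188). Over all genes 97 were called, but 2 with no filter, 155 at 2 FPKM, 5 with no trend, 260 with the replicate block and 5 to 38 without single libraries (7 and 5 without UCN1 1 and 2, 38 and 20 without PBS 1 and 2). A lone library left in a group was assumed to vary like the other group. The cause was not tested.

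Signs turned for 4 values, none called under any alternative. After pIONT these were Hspb2 with median-of-ratios scaling (0.014), Hspb8 under TPM (-0.028), and with single libraries left out Hspb2 at -0.17 to 0.082 and Hspb8 at -0.013 to 0.035. After UCN1 these were Hspb6 under TPM (-0.00015), and with single libraries left out Hspb6 at -0.063 to 0.12 and Hspb2 at -0.022 to 0.57.

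The library numbers were not found to pair libraries. The replicate block assumes such pairs. It gave the lowest adjusted p of Hspb1 after UCN1 (limma adjusted p = 0.0008) and the Cryab call at 0.0188 (limma adjusted p). The deviations of same-numbered libraries correlated at -0.055, -0.20 and 0.068 in the surgery experiment, where no pIONT library correlated best with its own number. In the injection experiment, with 2 libraries in each group, the same-numbered pairs share a single value by construction, 0.039. Hspb3 and Hspb7 had too few reads for a test, and Hspb2 has no value at 2 FPKM in the injection table.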

Other observations

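Hspb2, whose exons overlap those of Cryab, rested on 90 to 148 reads in each pIONT library and 97 to 115 in each sham library, but on 11 and 12 reads in the UCN1 libraries and 11 and 6 in the PBS libraries, while Hspb6 rested on 198 to 286 reads in the surgery libraries and 238 to 263 in the injection libraries. Depth was 24.1 to 29.6 M reads in the surgery libraries and 15.7 to 17.1 M reads in the injection libraries, and the part of counting in this difference was not tested.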
